A study of Mus musculus with 12 samples.

Results

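The genes followed here were the myosin heavy chains and the genes best known as markers of fetal or stress expression in the heart: Nppa, Nppb, Myh6, Myh7, Myh7b, Acta1 and Actc1. Each was taken by its gene symbol, which was present in all 12 count files, and the group holds 7 of the 21493 genes listed. The counts came from RNA of adult cardiomyocytes (ACMs), isolated from hearts of 3-month-old mice by perfusion with trypsin and collagenase. The mice had desmin, the muscle intermediate filament protein (Des+/+), or were without it (Des-/-), and swam as an exercise stress (swim) or did not (non-swim). The 4 groups, Des+/+ non-swim, Des+/+ swim, Des-/- non-swim and Des-/- swim, held 3 libraries each. The methods describe several mice in each library and no choice of animals by sex, so a replicate is a pool. The p-values measure the spread between pools. The methods also describe a 129SV line of both genotypes with GFP under the Myh6 promoter, and whether these ACMs came from it is not stated.

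Adult mouse ventricle contracts mainly with alpha myosin heavy chain (Myh6) and cardiac alpha actin (Actc1). The fetal ventricle uses more beta myosin heavy chain (Myh7), a slower motor, and more skeletal alpha actin (Acta1). Loaded or failing hearts are known to raise these fetal forms again, together with the natriuretic peptides Nppa and Nppb, secreted hormones that lower blood volume and pressure, and to lower Myh6. Myh7b is a related myosin whose gene carries the microRNA Mir499 in an intron, as Myh6 carries Mir208a and Myh7 carries Mir208b.

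Nppa and Nppb, and Myh6 and Myh7, lie in neighbouring pairs, with positions given here in build GRCm38. Nppb (chr4:147985788-147987205) and Nppa (chr4:148000722-148002079) are on the forward strand with 13516 bases between them. Myh6 (chr14:54941921-54966927) and Myh7 (chr14:54970684-54994626) are on the reverse strand with 3756 bases between them. Myh7b (chr2:155611212-155634307, forward), Actc1 (chr2:114047282-114053548, reverse) and Acta1 (chr8:123891769-123894751, reverse) stand apart. Of the 100-base stretches of the Myh6 transcripts, 10% also occurred in Myh7, and of those of Myh7 7.71% occurred in Myh6, so reads from these stretches cannot be assigned to one gene. The other 5 genes had 0 stretches in common with another gene. The antisense transcript Mhrt covers 1296 bases of Myh7 exons and was not among the genes counted.

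The promoters of the 3 gene pairs whose ratios are compared further on are shown 5′ to 3′, 250 bases before to 50 after the start that RefSeq gives on GRCm38.p6, for Myh7 the first of 2 starts listed. Capitals mark matches on either strand to the motifs of GATA factors (AGATAA or TGATAA), NKX2-5 (AAGTG), T-box factors (GGTGTG or AGGTGT) and TEAD factors (MCAT, CATTCC), and to the CArG box bound by SRF.
Nppa, chr4:148000472-148000771, forward: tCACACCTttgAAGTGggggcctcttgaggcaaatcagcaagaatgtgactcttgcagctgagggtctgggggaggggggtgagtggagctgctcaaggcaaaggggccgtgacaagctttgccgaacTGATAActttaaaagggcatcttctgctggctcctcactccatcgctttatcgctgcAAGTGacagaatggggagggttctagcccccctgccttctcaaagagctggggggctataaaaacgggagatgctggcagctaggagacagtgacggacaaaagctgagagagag
Nppb, chr4:147985650-147985949, forward: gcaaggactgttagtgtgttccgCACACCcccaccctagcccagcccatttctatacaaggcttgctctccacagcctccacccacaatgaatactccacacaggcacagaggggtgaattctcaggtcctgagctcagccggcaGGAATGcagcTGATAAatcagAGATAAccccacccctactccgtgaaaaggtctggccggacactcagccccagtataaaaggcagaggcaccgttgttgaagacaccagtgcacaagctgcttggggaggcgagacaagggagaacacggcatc
Myh6, chr14:54966558-54966857, reverse: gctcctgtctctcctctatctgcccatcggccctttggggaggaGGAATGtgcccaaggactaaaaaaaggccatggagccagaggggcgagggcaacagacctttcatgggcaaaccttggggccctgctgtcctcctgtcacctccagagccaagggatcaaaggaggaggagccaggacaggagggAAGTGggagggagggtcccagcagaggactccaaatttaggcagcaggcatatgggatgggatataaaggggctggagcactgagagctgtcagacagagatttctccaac
Myh7, chr14:54994577-54994876, reverse: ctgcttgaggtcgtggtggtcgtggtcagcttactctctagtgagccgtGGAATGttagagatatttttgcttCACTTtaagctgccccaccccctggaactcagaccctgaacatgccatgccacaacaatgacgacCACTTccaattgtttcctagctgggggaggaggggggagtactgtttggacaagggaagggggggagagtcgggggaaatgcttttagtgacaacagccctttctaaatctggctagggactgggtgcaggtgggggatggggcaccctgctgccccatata
Acta1, chr8:123894726-123895025, reverse: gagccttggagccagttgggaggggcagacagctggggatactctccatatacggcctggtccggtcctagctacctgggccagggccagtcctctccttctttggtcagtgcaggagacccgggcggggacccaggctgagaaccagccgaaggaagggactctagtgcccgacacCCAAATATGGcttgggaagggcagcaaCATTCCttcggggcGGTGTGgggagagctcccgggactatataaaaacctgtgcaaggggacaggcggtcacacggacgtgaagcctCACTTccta
Actc1, chr2:114052826-114053125, reverse: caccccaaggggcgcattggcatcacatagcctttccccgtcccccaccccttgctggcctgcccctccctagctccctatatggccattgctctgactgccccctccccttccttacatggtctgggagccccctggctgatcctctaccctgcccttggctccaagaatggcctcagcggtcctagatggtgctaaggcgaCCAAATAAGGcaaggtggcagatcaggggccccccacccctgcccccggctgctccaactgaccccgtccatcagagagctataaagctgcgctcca
Both natriuretic peptide promoters held a GATA motif, as did that of Myh7b, against 18.6% of 32851 promoters of the same length. A CArG box occurred in the 2 actin promoters and in no other of the 7, against 1.63% of all promoters. The NKX2-5 motif was in 4 of the 7 (Nppa, Myh6, Myh7 and Acta1; 46.4% of all), the T-box motif in 4 (Nppa, Nppb, Myh7b and Acta1; 25.8%) and the MCAT motif in 4 (Nppb, Myh6, Myh7 and Acta1; 14.7%). The MEF2 motif was in 0 of the 7 and in 0.557% of all promoters. RefSeq gives Myh7 a second start, whose window (chr14:54994500-54994799) held 1 NKX2-5 motif and no MCAT motif. These are matches of letters in a short window, and overlapping matches to 1 motif were counted once.

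Reads assigned to genes ranged from 4320819 to 12072443 per library, the Des-/- swim libraries being the shallowest, and 3 counts corresponded to at most 0.656 CPM (counts scaled to a common library size). The targeted gene Des was at 1470 to 3650 CPM in Des+/+ non-swim, 973 to 1640 in Des+/+ swim, 50.3 to 72.2 in Des-/- non-swim and 91.3 to 101 in Des-/- swim libraries. On the first principal component (48.9% of the variance) the 2 Des-/- libraries numbered 3 lay farthest from Des+/+. They also differed from the other 4 Des-/- libraries in Y-linked transcripts. The summed level of Ddx3y, Eif2s3y, Uty and Kdm5d was 179 and 272 CPM in them and at most 0.995 CPM in the other 4, against 4.06 to 245 CPM in Des+/+ non-swim and 144 to 292 CPM in Des+/+ swim libraries. Those 4 were below every Des+/+ library, so Y-linked expression was uneven between the genotypes. The labels give no sex. Reads that the counting assigned to no gene took 34% to 39.3% of the reads in Des+/+ non-swim and 45.9% to 50.4% in Des+/+ swim libraries. They took 34.2% to 52.3% in Des-/- non-swim and 57.2% to 64.5% in Des-/- swim libraries. This share did not overlap between swim and non-swim in either genotype, nor between the genotypes after swimming, and its part in those comparisons was not tested.

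All 7 genes were measured far above the count floor, the lowest value being 11.9 CPM for Myh7b in Des-/- non-swim replicate 3. Per kilobase of exon, which allows genes to be compared, Actc1 was highest and Myh7b lowest in all 4 groups. In Des+/+ non-swim ACMs the mean levels were 5820 ± 926 CPM per kb for Actc1, 3890 ± 1420 for Myh6, 942 ± 961 for Acta1, 527 ± 313 for Nppa, 203 ± 211 for Myh7, 113 ± 44.8 for Nppb and 23.0 ± 6.45 for Myh7b (SD, n = 3). Only Myh6 against Acta1 and Nppb against Myh7b were neighbours in this order whose libraries did not overlap. In Des-/- non-swim ACMs the order was Actc1 (1350 ± 881 CPM per kb), Nppa (1050 ± 501), Myh6 (700 ± 659), Acta1 (295 ± 140), Nppb (112 ± 22.6), Myh7 (70.1 ± 54.5) and Myh7b (8.47 ± 6.87), so Nppa stood above Myh6 in its mean, with overlapping libraries. Here only Acta1 against Nppb and Myh7 against Myh7b did not overlap.

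**Figure D1:**
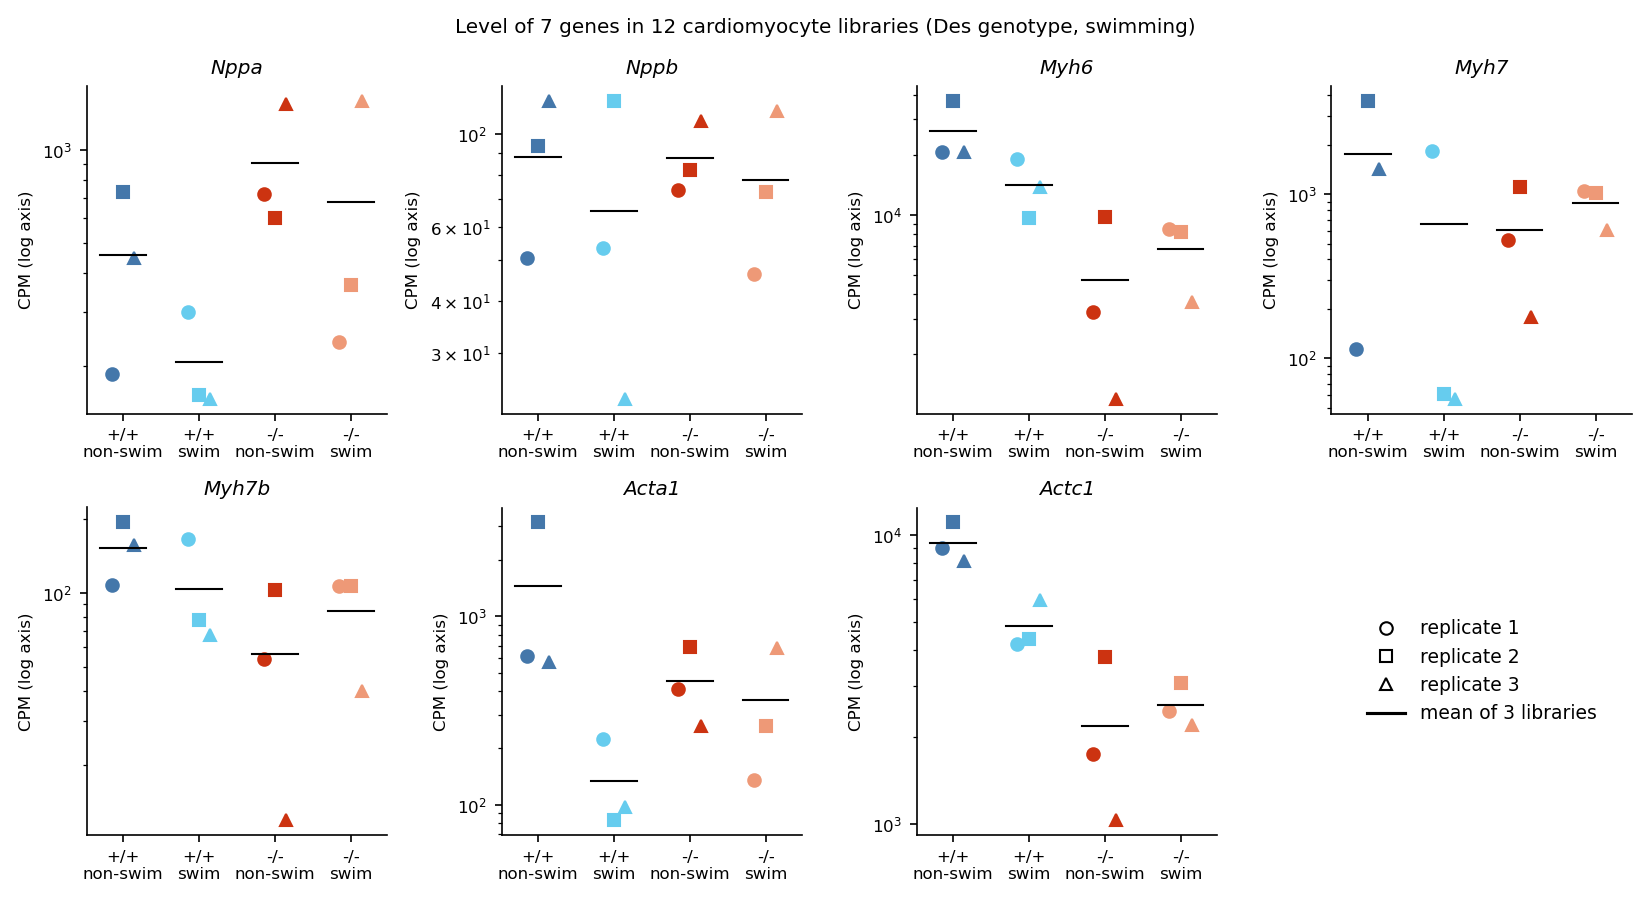
Level of each of the 7 genes (vertical log axes, CPM) in the 4 groups, with 1 point per library, the symbol giving the replicate number and the bar the mean of 3 libraries. Myh6 and Actc1 were lower in every Des-/- library than in the Des+/+ libraries of the same swimming state, Myh7 ranged from 56.6 to 3705 CPM within Des+/+ libraries, and Nppa was highest in replicate 3 of both Des-/- groups.

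Without swimming, Myh6 and Actc1, the genes of the main adult sarcomeric myosin and actin, were lower in Des-/- than in Des+/+ ACMs, and no member passed the test in the other direction. By edgeR's quasi-likelihood test, 2 of the 7 genes were called at an adjusted p under 0.05, against 32.0% of the 13158 genes tested. That share of the members is close to the share among all genes. The median log2 change of the 7 was -1.53, against 0.04 over all genes tested, and was 0.61 with the scaling to cardiomyocyte genes given further on. The study's own filter (p of at most 0.05, absolute log2 change of at least 0.6, mean count of at least 20), applied to the same fit, passed 4 members, Myh6, Myh7b, Acta1 and Actc1, all lower in Des-/-, against 32.0% of all genes. In 3 members, Myh6, Myh7b and Actc1, the libraries of the genotypes did not overlap, against 47.9% of all genes.

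Myh6 was at 20570, 37190 and 20720 CPM in replicates 1 to 3 of the Des+/+ non-swim group and at 3241, 9693 and 1195 CPM in Des-/- non-swim. All Des-/- libraries were below all Des+/+ libraries, and replicate 3 was the lowest. The log2 change was -2.47 (SE 0.68, edgeR adjusted p 0.0171), or 5.55-fold lower. The call rested on a narrow margin, since the adjusted p was 0.0593 without Des+/+ replicate 2 and 0.0575 without Des-/- replicate 1, and with both Des-/- libraries numbered 3 left out the log2 change was -1.94 (adjusted p 0.0132).

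Actc1 was at 9051, 11060 and 8130 CPM in the Des+/+ non-swim libraries and at 1742, 3775 and 1028 CPM in the Des-/- non-swim libraries. The groups did not overlap, and the log2 change was -2.11 (SE 0.42, edgeR adjusted p 0.00382), or 4.32-fold lower. It passed the threshold with each library left out in turn. Scaled to 10 cardiomyocyte genes, as described further on, neither call held (-0.08, adjusted p 0.837, for Actc1 and -0.60, adjusted p 0.118, for Myh6).

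Myh7 had the widest range of the 7 genes among Des+/+ libraries. It was at 113.9, 3705 and 1425 CPM in Des+/+ non-swim and at 1843, 60.0 and 56.6 CPM in Des+/+ swim libraries, a 32.5-fold range within each group. In Des-/- ACMs it was at 523.5, 1109 and 179.3 CPM without and 1043, 1012 and 606.7 CPM after swimming. The Des-/- libraries thus lay between the high and the low Des+/+ libraries. The log2 change without swimming was -1.53 (SE 1.32, 95% interval -4.41 to 1.35, edgeR adjusted p 0.399), and so wide an interval leaves both a fall and a rise possible.

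Myh7b was at 107.8, 193.1 and 156.3 CPM in Des+/+ non-swim and at 53.7, 102.9 and 11.9 CPM in Des-/- non-swim libraries. The highest Des-/- library was just under the lowest Des+/+ library. The log2 change was -1.44 (SE 0.63, edgeR adjusted p 0.102). It passed the threshold with the replicate number as a block (log2 change -1.80, adjusted p 0.033) and when Des-/- non-swim replicate 2 was left out (-2.22, adjusted p 0.0265). It was -0.96 (adjusted p 0.184) with Des-/- non-swim replicate 3 left out and -0.88 (adjusted p 0.112) with both Des-/- libraries numbered 3 left out.

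Acta1 was at 618.3, 3152 and 571.7 CPM in Des+/+ non-swim and at 409.5, 687.0 and 262.0 CPM in Des-/- non-swim libraries. Replicate 2 of Des+/+ stood far above the Des-/- libraries, whereas the other 2 Des+/+ libraries lay within the Des-/- range. The log2 change was -1.68 (SE 0.75, edgeR adjusted p 0.109), and -0.40 without Des+/+ replicate 2.

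Nppa, the atrial natriuretic peptide gene, was at 188.3, 730.5 and 447.6 CPM in Des+/+ non-swim and at 720.4, 599.6 and 1403 CPM in Des-/- non-swim libraries. Replicate 2 of Des+/+ was above 2 of the 3 Des-/- libraries, so the groups overlapped. The log2 change was 0.99 (SE 0.66, 95% interval -0.44 to 2.43, edgeR adjusted p 0.269). Single libraries moved it, to 0.54 without Des-/- replicate 3, 0.62 without Des+/+ replicate 1 and 1.51 without Des+/+ replicate 2, and it was 0.61 with both Des-/- libraries numbered 3 left out. Nppb, the brain natriuretic peptide gene, was at 50.6, 93.5 and 119.9 CPM in Des+/+ non-swim and at 73.5, 82.1 and 107.4 CPM in Des-/- non-swim libraries. Its groups covered nearly the same range, and its log2 change was -0.01 (SE 0.51, 95% interval -1.12 to 1.10, edgeR adjusted p 0.994), an interval that allows about a 2-fold change either way.

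After swimming, 0 of the 7 genes were called between the genotypes by edgeR, against 10.6% of all genes. At an unadjusted p under 0.05 there were 2 of the 7 members, Nppa (higher) and Actc1 (lower), against 4009 of the 13158 genes tested. DESeq2, fitted to all 21493 genes listed, called 0 members, against 2263 of those genes. The study's filter passed the same 2 members, against 17.6% of all genes. Myh6 and Actc1 were again lower in every Des-/- library than in any Des+/+ library, 2 members against 35.9% of all genes that did not overlap.

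Nppa was at 298.9, 161.4 and 157.4 CPM in Des+/+ swim and at 238.9, 365.7 and 1435 CPM in Des-/- swim libraries. Replicate 3 of Des-/- was far above the rest, and replicate 1 was within the Des+/+ range. The log2 change was 1.72 (SE 0.67, p 0.0251, edgeR adjusted p 0.111), and 0.55 (adjusted p 0.541) with Des-/- swim replicate 3 left out. This library is one of the 2 with high Y-linked transcripts in Des-/-, and Nppa was highest in both of them. With Y-linked expression as a covariate, an alternative chosen after seeing the data, Nppa was called higher in Des-/- both without (log2 change 1.44, edgeR adjusted p 0.0407) and after swimming (2.21, adjusted p 0.015). The term itself was 0.19 for Nppa per log2 unit of Y-linked expression (p 0.00784, edgeR adjusted p 0.0902). Sex of the pooled mice, replicate 3 and these levels cannot be told apart in 2 libraries.

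Nppb was at 53.5, 119.9 and 23.3 CPM in Des+/+ swim and at 46.4, 72.8 and 113.6 CPM in Des-/- swim libraries, with overlapping groups (log2 change 0.24, SE 0.51, edgeR adjusted p 0.781). Myh6 was at 19080, 9620 and 13730 CPM in Des+/+ swim and at 8470, 8154 and 3649 CPM in Des-/- swim libraries. The gap between the groups was narrow, and the log2 change was -1.07 (SE 0.65, edgeR adjusted p 0.285). Actc1 was at 4190, 4366 and 5948 CPM in Des+/+ swim and at 2447, 3079 and 2194 CPM in Des-/- swim libraries (log2 change -0.91, SE 0.41, edgeR adjusted p 0.156). The skeletal form, Acta1, had the opposite sign of the cardiac form. It was at 222.4, 82.9 and 97.3 CPM in Des+/+ swim and at 136.2, 261.1 and 682.0 CPM in Des-/- swim libraries (log2 change 1.42, SE 0.75, edgeR adjusted p 0.222), with replicate 1 of Des-/- inside the Des+/+ range. The value rested largely on Des-/- swim replicate 3, being 0.56 (adjusted p 0.673) without it and 0.58 with both Des-/- libraries numbered 3 left out. Myh7b was at 165.7, 77.7 and 67.5 CPM in Des+/+ swim and at 106.2, 106.5 and 39.9 CPM in Des-/- swim libraries, without a difference beyond the spread (log2 change -0.30, SE 0.63, edgeR adjusted p 0.773).

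In Des+/+ ACMs all 7 genes had lower means after swimming than without it, and 0 were called by edgeR, against 0.0912% of all genes. At an unadjusted p under 0.05 there were 2 of the 7 members, Acta1 and Actc1, against 2697 of the 13158 genes tested. The study's filter passed the same 2, against 10.3% of all genes. The libraries of Acta1, Myh6 and Actc1 did not overlap between swim and non-swim, 3 of 7 members against 31.3% of all genes. The largest of these differences was that of Acta1, with every swim library (82.9 to 222.4 CPM) below every non-swim library (571.7 to 3152 CPM), a log2 change of -3.43 (SE 0.81, p 0.00125, edgeR adjusted p 0.0831) or 10.8-fold lower. Acta1 passed the threshold with DESeq2 (log2 change -3.41, adjusted p 0.00508), where it was the 1 member called, against 773 of the 21493 genes listed. It also passed in an edgeR fit of the 6 Des+/+ libraries alone (-3.35, adjusted p 0.0484). With Des+/+ non-swim replicate 2 left out the log2 change was -2.15 (edgeR adjusted p 0.334). Some low atrial and skeletal muscle markers had lower values in the same comparison, without overlap and without passing the test. They were Myl7 (log2 change -3.55, adjusted p 0.0589), Myl4 (-1.91, adjusted p 0.121), Casq1 (-2.37, adjusted p 0.118) and Sln, which was at 0.584 to 5.77 CPM in non-swim and at 0 in all swim libraries. The other atrial markers tested, Sbk2 (-0.47), Sbk3 (-0.23), Stard10 (-0.16) and Dkk3 (0.46), overlapped between the groups. The median log2 change was -0.47 for the 7 atrial markers tested, 1 of them higher. It was -0.21 for the 4 skeletal markers tested, 1 of them higher. The part of these markers in the Acta1 value was not tested. Actc1 was 1.95-fold lower after swimming (log2 change -0.96, SE 0.41, edgeR adjusted p 0.216) and Myh6 1.85-fold lower (-0.89, SE 0.65, adjusted p 0.455). All 10 reference genes of ventricular cardiomyocytes, listed further on, were lower too (median log2 change -0.83). Scaled to those genes, the log2 change was -0.20 for Actc1 (edgeR adjusted p 0.703) and -0.16 for Myh6 (adjusted p 0.775). That of Acta1 was -2.59 (adjusted p 0.23). The median of all genes shifted by 0.73 with that scaling.

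In Des-/- ACMs, swimming gave 0 called members by edgeR and by DESeq2, against 0.0228% of all genes by edgeR and 323 of 21493 genes by DESeq2. The count at an unadjusted p under 0.05 was also 0, against 2201 of the 13158 genes tested. The study's filter passed 0 against 8.60% of all genes, and 0 members had groups that did not overlap, against 19.4%. The log2 changes ranged from -0.42 for Nppa to 0.59 for Myh7b. The 2 swimming comparisons differ in their control libraries, and the difference between them was tested as the interaction of genotype and swimming. By edgeR 0 of the 7 genes were called, against 0.00% of all genes, and by DESeq2 0, against 257 of the 21493 genes listed. At an unadjusted p under 0.05 there was 1 of the 7 members, Acta1, against 2148 of the 13158 genes tested. The study's filter passed the same member, against 13.1% of all genes. The swimming change of Acta1 was 3.10 log2 units higher in Des-/- than in Des+/+ (SE 1.06, p 0.0136, edgeR adjusted p 0.218). All 7 interaction values were above 0, with a median of 1.20 against 0.03 over all genes and 1.22 over 10 reference genes of ventricular cardiomyocytes, which were all above 0 too. Scaled to those 10 genes, the median of the 7 was 0.06, with Nppa (-0.97), Nppb (-1.51) and Actc1 (-0.03) below 0. The median of all genes shifted by -1.57 with that scaling, so Nppb was close to the shift and the other members above it.

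Ratios of 2 genes within a library do not depend on how libraries are scaled. They were compared between genotypes and between swimming states in 8 two-sided exact permutation tests, with labels permuted within the other factor. The smallest p that 400 arrangements can give is 0.005. The ratio of Myh7 to Myh6 was higher in Des-/- ACMs. Its log2 value was -7.50, -3.33 and -3.86 in Des+/+ non-swim, -3.37, -7.32 and -7.92 in Des+/+ swim, -2.63, -3.13 and -2.74 in Des-/- non-swim and -3.02, -3.01 and -2.59 in Des-/- swim libraries. All 6 Des-/- libraries were above all 6 Des+/+ libraries and were close to each other, whereas the Des+/+ libraries fell into 3 near the Des-/- values and 3 far below. Per length, Myh7 was at 8.93% to 13% of the Myh6 level in Des-/- libraries, at 5.37% to 7.78% in the 3 higher and at 0.322% to 0.488% in the 3 lower Des+/+ libraries. The mean log2 difference was 2.70 (exact permutation p 0.005, adjusted p 0.02), 2.06 without and 3.33 after swimming. Leaving out any of the 6 Des-/- libraries kept the difference between 2.63 and 2.77 but took the adjusted exact permutation p above the threshold, to between 0.08 and 0.128. A gene without change would also rise against Myh6, whose own log2 changes were -2.47 without and -1.07 after swimming. The medians over all genes tested were 0.04 and 0.02. Myh7 alone was not called in either comparison (-1.53, edgeR adjusted p 0.399, and 0.44, adjusted p 0.841). The swimming difference of Myh7 to Myh6 was -0.68 (exact permutation p 0.555).

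The ratio of Nppa to Myh6 was also higher in Des-/- ACMs. Its log2 value was -6.77, -5.67 and -5.53 in Des+/+ non-swim, -6.00, -5.90 and -6.45 in Des+/+ swim, -2.17, -4.01 and 0.23 in Des-/- non-swim and -5.15, -4.48 and -1.35 in Des-/- swim libraries. All Des-/- libraries were above all Des+/+ libraries, and replicate 3 was the highest in both Des-/- groups. In Des-/- non-swim replicate 3, Nppa had more reads than Myh6, at 117% of its count. The mean log2 difference was 3.23 (exact permutation p 0.005, adjusted p 0.02), and with both Des-/- libraries numbered 3 left out it was 2.10 (adjusted exact permutation p 0.0667). Part of this difference was the fall of Myh6, at log2 changes of -2.47 without and -1.07 after swimming. The medians over all genes tested were 0.04 and 0.02, so a gene without change would also rise against Myh6. Nppa alone was not called in either comparison (0.99, edgeR adjusted p 0.269, and 1.72, adjusted p 0.111). Ratios of genes outside the 7 to Myh6 were not tested.

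The ratio of skeletal to cardiac alpha actin, Acta1 to Actc1, had a mean log2 difference of 1.58 between genotypes (exact permutation p 0.035, adjusted p 0.07) and of -1.54 between swim and non-swim (exact permutation p 0.035, adjusted p 0.07). Its log2 value was -3.87, -1.81 and -3.83 in Des+/+ non-swim, -4.24, -5.72 and -5.93 in Des+/+ swim, -2.09, -2.46 and -1.97 in Des-/- non-swim and -4.17, -3.56 and -1.69 in Des-/- swim libraries. The Des+/+ swim libraries were the 3 lowest of all 12, and replicate 2 of Des+/+ non-swim and replicate 3 of Des-/- swim were the 2 highest. Per length, Acta1 was at 1.72% to 5.59% of the Actc1 level in Des+/+ swim and at 19.2% to 26.9% in Des-/- non-swim libraries. For Nppb to Nppa the genotype difference of -0.97 did not pass the test (exact permutation p 0.075, adjusted p 0.12), nor did the swimming difference of 0.44 (exact permutation p 0.365).

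**Figure D2:**
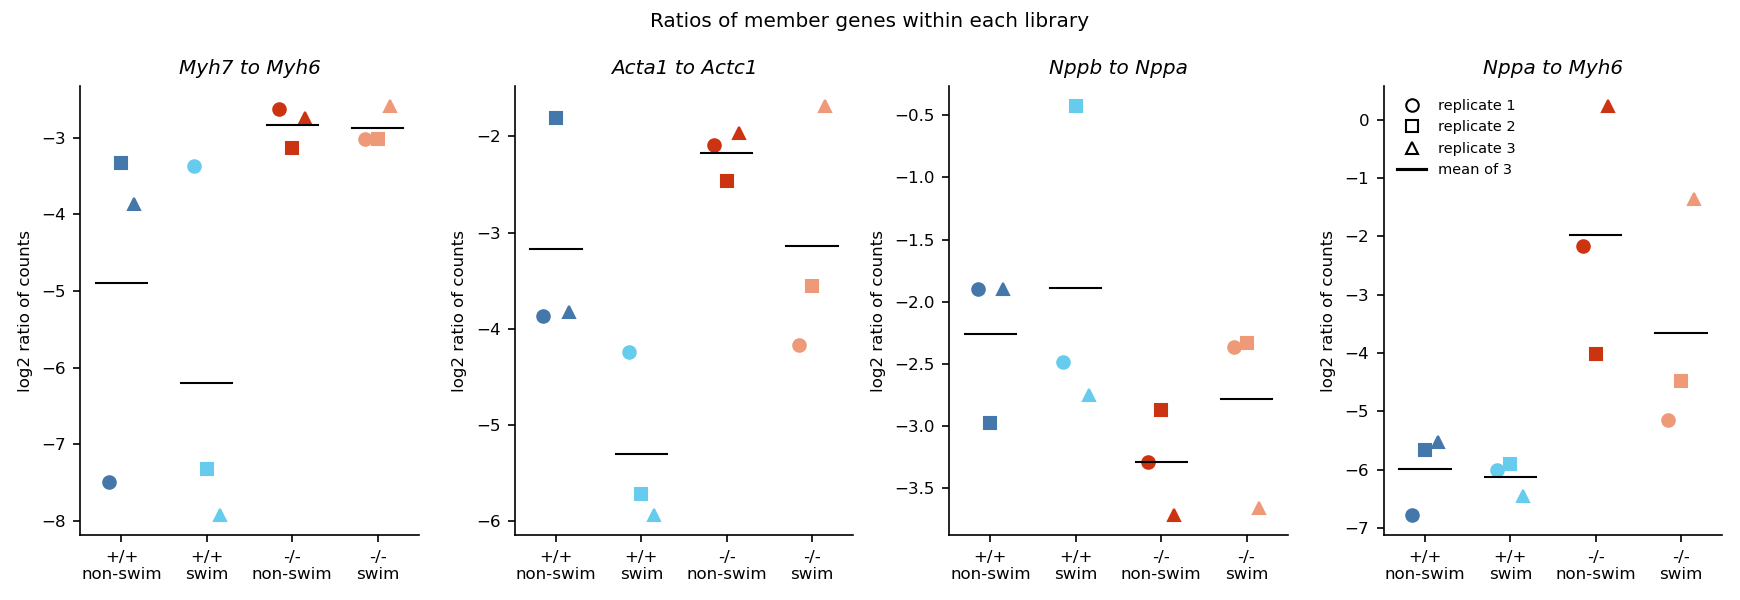
Log2 ratio of counts of 4 pairs of genes within each library (vertical axes), by group, with 1 point per library, the symbol giving the replicate number and the bar the mean of 3 libraries. Myh7 to Myh6 and Nppa to Myh6 were higher in all 6 Des-/- libraries than in all 6 Des+/+ libraries, and Acta1 to Actc1 was lowest in Des+/+ swim.

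The falls of Myh6 and Actc1 went with a fall of other cardiomyocyte genes. All 10 genes of a reference list of ventricular cardiomyocytes (Tnnt2, Tnni3, Actn2, Mybpc3, Ttn, Ryr2, Ldb3, Myom1, Pln and Csrp3) were called lower in Des-/- without swimming, with a median log2 change of -2.01. Of all 13158 genes tested, 2370 were called lower. After swimming 1 of the 10, Pln, was called lower (median -0.73), against 733 of all genes. The mean log2 CPM of the list was 10.88 to 11.55 in Des+/+ non-swim, 10.07 to 10.77 in Des+/+ swim, 8.04 to 9.91 in Des-/- non-swim and 9.28 to 9.80 in Des-/- swim libraries. In bulk RNA, fewer cardiomyocytes and less RNA per cardiomyocyte cannot be told apart. Relative to this list in the same library, Actc1 was at a log2 value of 1.88 to 2.26 in Des+/+ non-swim and 1.94 to 1.98 in Des-/- non-swim libraries, nearly the same. Myh6 was at 3.29 to 3.63 in Des+/+ non-swim and 2.19 to 3.34 in Des-/- non-swim, and Acta1 at -1.89 to 0.07 and -0.48 to 0.00. Nppa was at -3.32 to -2.04 and -0.68 to 2.42, and Nppb at -5.22 to -4.14 and -3.55 to -1.29. On this scale the median of all genes was 2.39 log2 units higher in Des-/-.

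**Figure D3:**
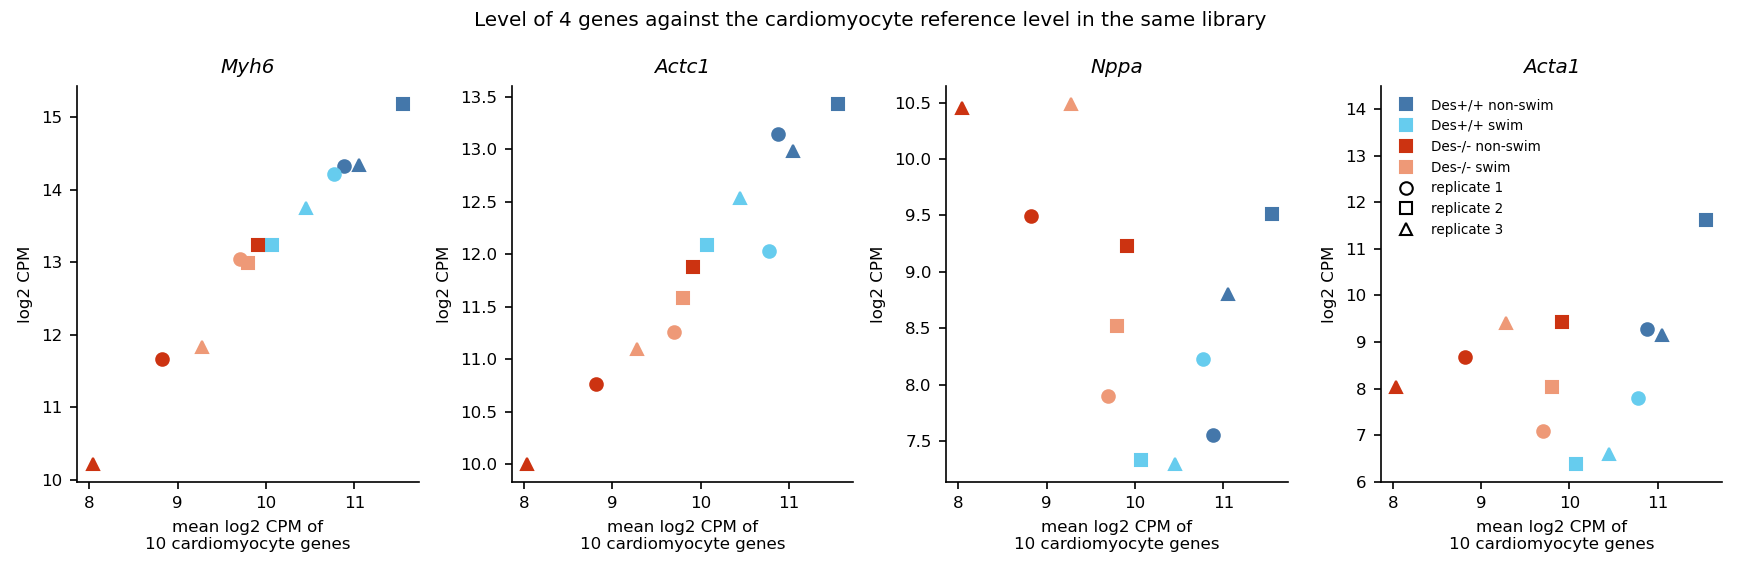
Level of Myh6, Actc1, Nppa and Acta1 (vertical axes, log2 CPM) against the mean log2 CPM of the 10 reference cardiomyocyte genes in the same library (horizontal axes), 1 point per library, with group as colour and replicate as symbol. Myh6 and Actc1 followed the reference level over its range from 8.04 to 11.55, and Nppa was highest in replicate 3 of both Des-/- groups, whose reference levels were 8.04 and 9.28.

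When libraries were scaled to the reference list instead of to all genes, the members' order changed sign for several of them. Without swimming the log2 changes were 3.77 for Nppa (edgeR adjusted p 0.000282), 2.52 for Nppb (adjusted p 0.00212), 0.67 for Acta1, 0.61 for Myh7, 0.47 for Myh7b, -0.08 for Actc1 and -0.60 for Myh6. This scaling moved the median of all genes up by 2.39, and 91.8% of all genes were called, so the 2 called members are fewer than that share would give and their direction is that of most genes. The value of Nppa was above that shift and the value of Nppb close to it. After swimming the shift was 0.82 and 1.93% of all genes were called. Acta1 was the 1 member called (log2 change 2.50, SE 0.64, edgeR adjusted p 0.047), and Nppa was at 2.80 (SE 0.75, adjusted p 0.0537), with the others between -0.24 and 1.55. Relative to the list, Acta1 was at -2.61, -1.77 and 0.14 in Des-/- swim and at -3.85 to -2.97 in Des+/+ swim libraries. Replicate 3 of Des-/- swim was thus far the highest, and no library was left out under this scaling.

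**Figure D4:**
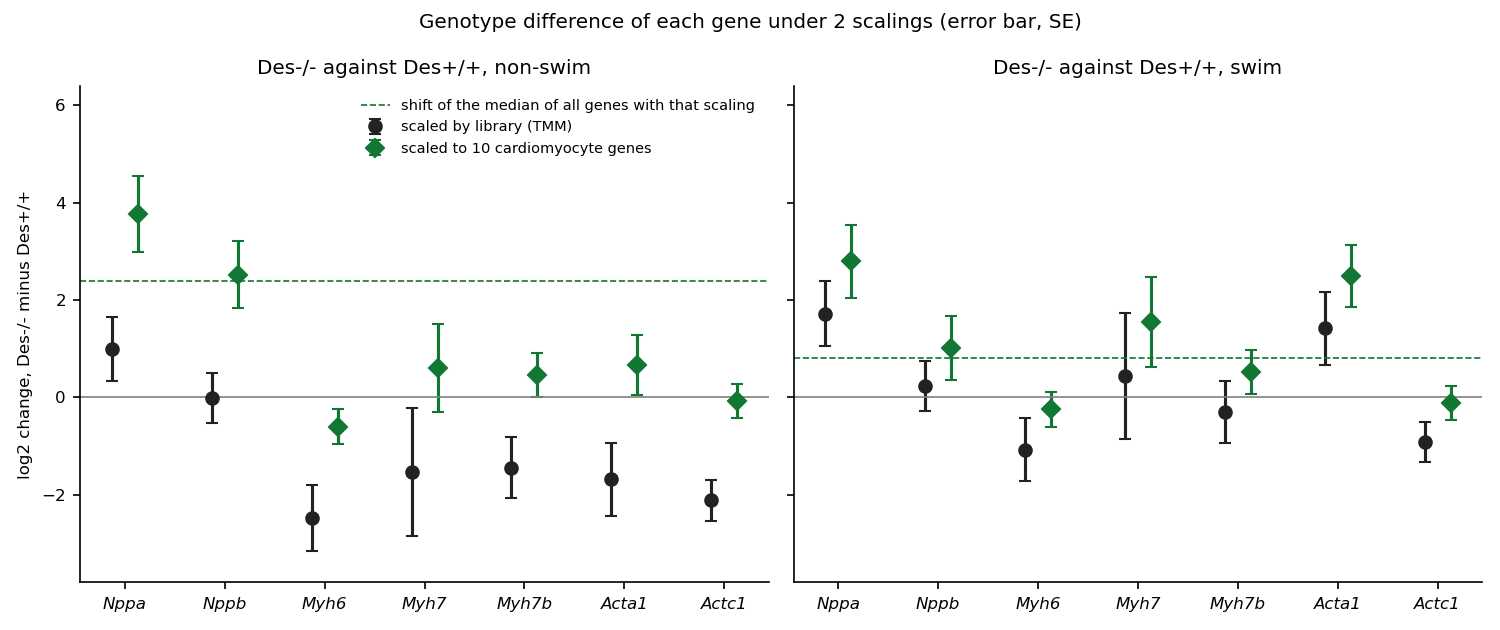
Log2 change of the 7 genes between Des-/- and Des+/+ ACMs (vertical axis) without swimming (left) and after swimming (right), scaled by library (circles) and to 10 reference cardiomyocyte genes (diamonds), with SE as error bars. The dashed line is the shift of the median of all genes under the second scaling, 2.39 without and 0.82 after swimming, and Nppa lay above it in both.

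Genes that act beside the members were taken from lists. Of all 13158 genes tested, 1840 were called higher and 2370 lower in Des-/- without swimming, and 659 higher and 733 lower after it. Of 11 adult counterparts, genes of the mature ventricular programme, all 11 were called lower in Des-/- without swimming (median log2 change -2.29). They included Kcnd2, a potassium channel (-2.88), Pln, the inhibitor of the calcium pump (-2.76), Cpt1b, which carries fatty acids into mitochondria (-2.34), and Atp2a2, the calcium pump itself (-2.33). Pln and Tnni3 stand in both this and the reference list. After swimming 1 of the 11, Pln, was called (-1.84). Scaled to the reference list, 0 of the 11 were called in either comparison (median -0.23 without swimming).

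Of 12 other fetal or stress genes tested, 0 were called higher and 3 lower without swimming: Hcn4, a pacemaker channel (-2.56), Myl4, an atrial and fetal light chain (-1.83), and Fhl1 (-0.52). Ankrd1, which rises in loaded hearts, was at 1340 and 914 CPM in the means of Des+/+ and Des-/- and was not called (log2 change -0.55, edgeR adjusted p 0.467). After swimming Myl7, the atrial light chain, was called higher (3.54), from a mean of 0.604 to one of 7.46 CPM. Of 4 other myosin heavy chain genes tested, the non-muscle Myh10 (0.82) and Myh9 (0.65) were called higher and Myh14 lower (-2.11) without swimming. Of 4 other actins, the cytoplasmic Actg1 was called higher (0.82). Scaled to the reference list, 9 of the 12 fetal or stress genes were called higher, against 91.8% of all genes called in either direction, and Ankrd1 was at 1.90 (edgeR adjusted p 0.00599), below the shift of 2.39 of the median gene. The log2 changes of Fhl1 (1.91) and Myl4 (0.68) were above 0 there, that of Hcn4 was -0.73 and that of Myh14 -0.03.

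In the natriuretic system 11 other genes were tested, and without swimming 2 were called higher and 3 lower, beside 32.0% of all genes in both directions together. Corin, the protease that cuts the Nppa precursor, fell from a mean of 236 to 51.3 CPM (log2 change -2.20, SE 0.41, edgeR adjusted p 0.00258). Mme, which degrades natriuretic peptides (-1.73), and Npr3, their clearance receptor (-1.20), were also lower, and Pcsk6 (0.88), a protease that activates corin, and Pde9a (0.90), which degrades the second messenger cGMP, were higher. The signalling receptors Npr1 (0.18) and Npr2 (0.13) were not called. After swimming Pde9a was called higher (1.55) and Furin lower (-0.66). Scaled to the reference list, 9 of the 11 were called higher, against 91.8% of all genes called. Npr3 (1.09), Mme (0.53) and Corin (-0.24) were below the shift of the median gene.

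Of 18 transcription regulators of these genes, 10 were called lower and 1 higher without swimming (median log2 change -0.70). The largest falls were those of Nkx2-5 (-2.18), Myocd, the muscle coactivator of SRF (-2.05), Tbx5 (-1.87) and Hand2 (-1.52). Rest, a repressor of fetal cardiac genes including Nppa, was the 1 called higher (0.47, SE 0.16, edgeR adjusted p 0.0389), at means of 23.5 and 32.5 CPM. After swimming 2 were called lower, Mef2a (-0.66) and Srf (-0.65). Scaled to the reference list, 14 of the 18 were called higher and 0 lower without swimming, against 91.8% of all genes called, and Nkx2-5 was at 0.13.

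Markers of other cells moved with genotype as well, and their part in the members' values was not tested. Of all 13158 genes tested, 1840 were called higher in Des-/- without and 659 after swimming. Without swimming 8 of 8 fibroblast markers, 6 of 8 macrophage markers, 5 of 6 erythrocyte markers, 2 of 3 lymphocyte markers, 1 of 3 neutrophil markers and 8 of 10 genes of the response to cell isolation were called higher in Des-/-, and 0 of 8 endothelial and 0 of 8 mural markers were called. The summed level of the fibroblast list was 3200 to 3660 CPM in Des+/+ non-swim, 2200 to 3190 in Des+/+ swim, 7810 to 35800 in Des-/- non-swim and 3770 to 11700 in Des-/- swim libraries. The macrophage sum was 204 to 307, 233 to 286, 375 to 3920 and 204 to 1230 CPM in the same order, and that of the isolation response 1220 to 1970, 1600 to 1970, 3950 to 7750 and 3400 to 5350 CPM. Erythrocyte markers summed to 180 to 547, 1390 to 2180, 1470 to 4580 and 491 to 2920 CPM. After swimming 6 of 10 isolation response genes and 1 of 8 fibroblast markers were called higher, and 0 of the macrophage, erythrocyte, lymphocyte and neutrophil markers. Of the other isolation response genes, Hspa1b (log2 change -1.94), Hspa1a (-1.62) and Dnajb1 (-0.61) were lower without being called, and Atf3 (0.91) was higher. Whether cell isolation raised the genes of that list was not tested. Endothelial markers summed to 5520 to 12900 CPM over all libraries and mural markers, which include the smooth muscle genes Acta2 and Myh11, to 2540 to 5600 CPM, so the isolates held RNA of these cells too.

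Nppa is the hormone gene of the atrium, and Acta1 is the main actin gene of skeletal muscle, so the markers of both tissues were read beside them. The atrial markers Myl7, Sln and Bmp10 were at most 11.5, 5.77 and 0.118 CPM in any library, and Bmp10 had at most 1 count. In Des-/- swim libraries, where Nppa reached 1435 CPM, Sln was at 0 to 0.219 CPM. Myl7 was at 5.4 to 8.97 CPM and Myl4 at 5.23 to 19.7 CPM in the same libraries. Between the genotypes after swimming, 5 of the 7 atrial markers tested had a log2 change above 0 and 2 below, with a median of 1.3. The part of atrial RNA in the Nppa value was not tested. The sum of the 8 atrial markers was 54.3 to 129, 36.5 to 103, 129 to 181 and 113 to 249 CPM in Des+/+ non-swim, Des+/+ swim, Des-/- non-swim and Des-/- swim, and in Des-/- libraries most of it was Dkk3, called higher in both comparisons (2.17 and 1.78). Of 7 atrial markers tested, 1 was called higher (Dkk3) and 1 lower (Myl4) without swimming, and Dkk3 and Myl7 were higher after it. The skeletal muscle markers Myh4 and Tnnc2 had at most 1 and 3 counts in any library, and the 10 skeletal markers summed to 16.5 to 47.1, 7.49 to 13.6, 10.4 to 26.5 and 9.84 to 25.2 CPM in the same order. Of the 4 tested, Tnnt3 was called higher in Des-/- without (1.75) and after swimming (2.50), at group means of 0.581 to 4.03 CPM.

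Among the members themselves, Myh6, Actc1 and Myh7b varied together over the 12 libraries, with Pearson's r of log2 CPM of 0.95 for Myh6 with Actc1, 0.921 for Myh6 with Myh7b and 0.789 for Myh7b with Actc1. Myh6 and Myh7, the neighbours on chromosome 14, had an r of 0.289, Acta1 and Actc1 one of 0.348, and Nppa and Nppb one of 0.601. These values describe libraries that share genotype, depth and cell mix. Among the 12158 genes tested that averaged 20 counts or more, those most like Myh6 were Slc25a34 (r 0.992), the glucose transporter Slc2a4 (0.992) and the muscle glycogen phosphorylase Pygm (0.990), and those most like Actc1 were Srl (0.994), the calcium store protein Casq2 (0.988) and Supv3l1 (0.987). For Myh7b they were Casz1 (0.954), Coro6 (0.95) and the ventricular light chain Myl2 (0.947). Nppa was most like Ctps2 (0.964), Tmem19 (0.947) and Hhat (0.944), Nppb like Anapc10 (0.837), the vasodilator peptide gene Adm (0.811) and Atp6v1g2 (0.803), Myh7 like Kif5c (0.919), Trim7 (0.908) and Igsf23 (0.88), and Acta1 like Gpld1 (0.943), Lrfn4 (0.929) and Prkag2 (0.924). Nppb thus had the weakest likeness to its nearest gene of the 7.

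The 3 microRNAs in introns of the myosin genes share most of their seed, bases 2 to 8, shown in capitals in the mature sequences from RefSeq.
miR-208a-3p (intron of Myh6, chr14:54949072-54949093, reverse): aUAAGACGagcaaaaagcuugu
miR-208b-3p (intron of Myh7, chr14:54975710-54975731, reverse): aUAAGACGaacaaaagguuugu
miR-499-5p (intron of Myh7b, chr2:155622893-155622913, forward): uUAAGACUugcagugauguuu
The seeds of the 2 miR-208 forms are the same, UAAGACG, and that of miR-499 is UAAGACU. Libraries made this way do not measure mature microRNAs. The reads counted to these genes were 7 for Mir208a, in 5 of the 6 Des+/+ libraries and in 0 of the Des-/- libraries, 1 for Mir208b and 1 for Mir499, all at or under the floor of 3 counts in each library, so no difference was detectable at this depth.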

How the data were processed

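RNA of ACMs was sequenced in 12 libraries, 3 in each of 4 groups taken from the sample labels. The values the authors deposited are counts of reads for each gene, not normalized. They were made from 100-base single-end reads aligned with HISAT2 2.2.1 to GRCm38 (mm10) and counted with HTSeq-count in reverse-strand mode. HISAT2, SAMtools 1.13, HTSeq and DESeq2 1.40.2 are named in the submitters' processing notes. The labels name a kit that keeps no strand, the methods one that does. Among 93 opposite-strand overlaps expected to hold over 3000 reads if strand were ignored, 18 held under 1% of them. Reads over 2 genes can also be set aside as ambiguous, so this does not settle which kit was used.

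Tools were edgeR 4.0.16, limma 3.58.1 and DESeq2 1.42.0 in R 4.3.3. Entries that name no gene were left out. Reads that the strand-specific counting assigned to no gene were 34% to 64.5% of a library's reads that were assigned, unassigned in this way or ambiguous. Filtering with filterByExpr kept 13158 of 21493 genes, libraries were scaled by TMM, and a single model with 4 means, for all 12 libraries, left 8 residual degrees of freedom. Quasi-likelihood tests were made for 5 contrasts, with p-values adjusted by Benjamini and Hochberg over all genes tested. Each SE was calculated back from the log2 change and the F statistic of its test, and the 95% intervals were built from these SEs. The study's filter was applied with its p read as unadjusted. Ratios used counts with 0.5 added to each, and their p-values were adjusted over the 8 tests. Lengths are of merged exons of GENCODE M21. Promoters and microRNAs came from RefSeq. No p was computed for a list, and lists are given by counts and medians.

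The members and lists were chosen with earlier results of these data known. All 7 members are described. Other genes were named only from the lists, those called with the largest changes (at most 4 a list), the defining markers of other cell types and a few that were not called, named for their role after their values were seen. For each member the 3 genes of highest r (log2 CPM, prior count 2) are named. Alternatives were other scalings and filters, DESeq2, the 6 libraries compared, a replicate block, and each library left out. The Y-linked covariate and leaving out both Des-/- libraries numbered 3 were chosen after seeing the data. The edgeR test was also run on simulated counts in which a small part of the genes was changed, equally up and down. Such counts cannot test the choice of scaling. Intervals and floors cover counting error and the spread of pools only.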

Additional observations from a re-analysis of the deposited data

How the results depend on the processing

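Scaling to the reference cardiomyocyte list turned the direction of Nppb (2.52), Myh7 (0.61), Myh7b (0.47) and Acta1 (0.67) without swimming, of Myh7b after it (0.53), of Nppb (0.47) and Myh7b (0.14) for swimming in Des+/+, of Actc1 for swimming in Des-/- (-0.24) and of Nppa (-0.97), Nppb (-1.51) and Actc1 (-0.03) for the interaction. The median of all genes shifted by 2.39 for genotype without swimming and by 0.82 after it. It shifted by 0.73 for swimming in Des+/+, by -0.83 for swimming in Des-/- and by -1.57 for the interaction. This scaling ended the calls of Myh6 (-0.6) and Actc1 (-0.08) without swimming, called Nppa and Nppb instead, and called 1 member after swimming. Nppb without swimming, at -0.01, was near 0 under all settings that keep the scale to all genes, with 0.0 for DESeq2 size factors, 0.1 for upper-quartile factors, 0.06 without a filter, 0.03 with at least 10 counts in all libraries, 0.0 for DESeq2, 0.01 for the 6 libraries compared and 0.11 with the Y-linked covariate. DESeq2 called 1 member for swimming in Des+/+, against 773 of the 21493 genes listed. In the fit of the 6 libraries compared, 1 member was called between genotypes without swimming (Myh6 lost its call, at -2.45 and adjusted p 0.0666) and 1 for swimming in Des+/+. The study's filter passed 4, 2, 2 and 1 members for genotype without and after swimming, swimming in Des+/+ and the interaction. The cause of these differences was not tested. For the 6 libraries compared, the Y-linked covariate, libraries left out and the replicate block, the share of all genes called is not given. Their counts of called members are therefore not a result about the members.

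The next alternatives were chosen after seeing the data. The Y-linked covariate gave 4 called members without swimming, 1 after it and 1 for swimming in Des+/+, with Myh7 at -0.16 after swimming. With both Des-/- libraries numbered 3 left out, 1 member was called for swimming in Des+/+, Nppb (-0.16) and Myh7b (0.05) turned direction after swimming, as did Nppa (-0.05) and Nppb (-0.05) in the interaction, and the genotype differences were 2.6 for Myh7 to Myh6 (adjusted exact permutation p 0.133) and 2.1 for Nppa to Myh6 (0.0667), on fewer libraries.

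With 1 library left out at a time, 1 to 3 members were called between genotypes without swimming and 0 in the other 4 comparisons. The log2 changes that turned direction were those of Nppb (-0.29 to 0.28) without swimming, Nppb (-0.17 to 1.01), Myh7 (-0.1 to 3.92) and Myh7b (-0.53 to 0.21) after it, Nppa (-1.59 to 0.04), Nppb (-0.56 to 0.09), Acta1 (-1.19 to 0.1) and Actc1 (-0.09 to 0.89) for swimming in Des-/-, and Nppa (-0.44 to 1.17) and Nppb (-0.15 to 1.02) for the interaction. The genotype differences of the ratios ranged from 2.05 to 3.41 for Myh7 to Myh6, 1.22 to 1.92 for Acta1 to Actc1, -1.18 to -0.6 for Nppb to Nppa and 2.65 to 3.74 for Nppa to Myh6. The swimming differences ranged from -1.38 to -0.25, -1.91 to -1.2, 0.07 to 0.66 and -1.48 to -0.34 in the same order. Acta1 to Actc1 passed the threshold without Des+/+ non-swim replicate 2 for genotype and without Des-/- swim replicate 3 for swimming (both adjusted exact permutation p 0.02).

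The replicate numbers paired the samples by the correlation of their deviations only for swimming in Des-/- (r 0.365, 0.316 and 0.602), where the replicate block changed no call. The other pairs had r from -0.41 to 0.134. As a block it gave 3 called members without swimming, with Nppb at 0.06. For the ratios it kept the genotype differences of 2.7 (Myh7 to Myh6) and 3.23 (Nppa to Myh6), with an adjusted p of 0.125 by exact permutation of signs, where the smallest p the design allows is 0.031. Both differences were at that smallest p, so this block could not have called them whatever their size.

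Each group held 3 pools, and the 7 genes were far above the floor of 3 counts in every library. The list genes with few counts, such as Sln, Tnnt3 and the microRNAs, are limited by depth.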
